A study of Mus musculus with 24 samples.

Results

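The Z-disc genes described here are 10 genes that encode structural and signalling proteins of the muscle Z-disc: Actn2, Actn3, Myoz1, Myoz2, Myot, Tcap, Csrp3, Ldb3, Pdlim3 and Sorbs2. They were chosen by gene symbol from the annotation of 2 Affymetrix mouse array designs, called MA and MB after the endings of the sample titles, and make up 10 of the 18193 named genes on these designs. A probe set is a group of short probes read as 1 signal for a transcript. The 10 genes had 16 probe sets, 12 of the 22626 non-control MA probe sets and 4 of the 22511 on MB. All 4 MB probe sets were of Sorbs2.

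Total RNA came from C2C12 cells, an established mouse myoblast line whose cells stop dividing and fuse into multinucleate myotubes in low serum. All cells were transduced with pSuperR, a vector that expresses hairpin RNAs, either with a short hairpin RNA (shRNA) against p68, the RNA helicase encoded by Ddx5, or empty. The 4 groups were p68 shRNA in differentiation medium (DM), empty vector in DM, p68 shRNA in growth medium (GM) and empty vector in GM, with 3 arrays each on both designs. The series' design text gives muscle gene expression under RNA interference of p68/p72 as the question; the sample labels name p68 only. The sources used here give neither the time in DM nor whether the cells were a pool or a clone. They also do not tie the replicates to separate cultures, so the p-values below reflect array-to-array spread that could be purely technical.

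The Z-disc borders the sarcomere, the contractile unit of striated muscle, and is where actin filaments of opposite polarity are crosslinked by alpha-actinin. Titin, the giant elastic protein, ends there, and a network of LIM-domain, PDZ-domain and calcineurin-binding proteins is built on the alpha-actinin lattice. As myoblasts differentiate into myotubes, genes of the muscle forms are switched on and the lattice is assembled into myofibrils.

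Signals are the deposited MAS5 intensities on a linear scale, and changes are differences of log2(signal + 15), which understate the change where a signal is low. A probe set was tested where it reached 30 in at least 3 of the 12 arrays of its design, and 11 of the 12 MA and 4 of the 4 MB probe sets did. Changes, standard errors (SE) and p-values come from limma with Benjamini-Hochberg adjustment over all 14367 MA or 19303 MB probe sets tested, and a change was called at an adjusted p under 0.05. Signals are compared between groups for a probe set and never between probe sets. For 3 arrays against 3 the smallest exact two-sided permutation p is 0.1, so no single gene could pass that test alone. Within groups, the mean correlation of an array with its fellows was 0.951 to 0.983 on MA and 0.825 to 0.886 on MB, lowest for the third DM vector array on MA and the second on MB. The median residual SD was 0.214 on MA and 0.523 on MB, so MB values are less precise.

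The targeted gene, Ddx5, was lower in DM by its probe set of highest signal (log2 change -0.68 ± 0.15 SE, limma adjusted p = 0.0068), whereas in GM the change was -0.31 ± 0.15 (adjusted p = 0.29). Its other 5 probe sets passed in neither medium. A lower Ddx5 signal was therefore called in DM by 1 of 6 probe sets.

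Of the 10 genes, 6 had promoter sequence in the RefSeq table used (GRCm38.p6), with 10 annotated starts. The sequences below are shown because Actn2, Myoz2 and Csrp3 carried the largest falls with the shRNA in DM and Pdlim3 had no called change there. Each is the 250 bases before the start, 5′ to 3′ on the gene's strand, with every E-box in capitals. An E-box, the DNA motif of myogenic regulators such as MyoD and myogenin, was searched as CANNTG on both strands. CAGCTG, which is one form of that motif, and the MEF2 motif were also searched.
Actn2 promoter, chr13:12340733-12340982, minus strand: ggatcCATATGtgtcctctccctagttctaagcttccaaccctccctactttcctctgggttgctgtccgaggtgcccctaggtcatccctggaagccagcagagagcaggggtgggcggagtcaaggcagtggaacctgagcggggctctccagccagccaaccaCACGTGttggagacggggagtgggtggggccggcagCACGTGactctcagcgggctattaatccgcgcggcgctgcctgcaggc
Myoz2 promoter, chr3:123034988-123035237, minus strand: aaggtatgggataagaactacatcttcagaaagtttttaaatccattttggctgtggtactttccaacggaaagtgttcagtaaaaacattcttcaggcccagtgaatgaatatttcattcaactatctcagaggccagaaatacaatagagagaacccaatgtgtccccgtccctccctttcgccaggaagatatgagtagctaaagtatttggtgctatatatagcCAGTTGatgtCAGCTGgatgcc
Csrp3 promoter, chr7:48848052-48848301, minus strand: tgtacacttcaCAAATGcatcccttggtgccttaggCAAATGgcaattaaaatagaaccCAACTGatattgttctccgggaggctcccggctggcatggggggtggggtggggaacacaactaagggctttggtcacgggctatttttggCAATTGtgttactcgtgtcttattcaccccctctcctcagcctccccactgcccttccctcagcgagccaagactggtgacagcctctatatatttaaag
Pdlim3 promoter, chr8:45885237-45885486, plus strand: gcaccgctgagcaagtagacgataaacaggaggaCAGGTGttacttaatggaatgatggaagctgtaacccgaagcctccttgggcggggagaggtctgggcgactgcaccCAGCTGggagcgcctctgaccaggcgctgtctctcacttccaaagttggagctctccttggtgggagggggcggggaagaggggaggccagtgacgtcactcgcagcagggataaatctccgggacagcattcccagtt
The Actn2 window holds 3 E-boxes, at 245, 84 and 48 bases before the start. Myoz2 has 2, at 22 and 12 bases, Csrp3 has 4, at 239, 214, 191 and 100 bases (its other start, downstream, also has 4), and Pdlim3 has 2, at 216 and 139 bases. CAGCTG occurs in the windows of Myoz2, at 12 bases, and Pdlim3, at 139 bases, and in 1 Sorbs2 window, at 9 bases. The MEF2 motif occurs in Myoz2 only among these starts, at 33 bases. Both Ldb3 starts hold no E-box in the window. In all, 8 of the 10 starts hold an E-box, which 66.2% of 32851 mouse promoters also do. CAGCTG is in 13.0% of these promoters and the MEF2 motif in 2.92%. A match is only a match of letters.

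By their leading probe sets, all 10 Z-disc genes were higher in DM than in GM, with the shRNA and with empty vector. The 10 leading probe sets, each gene's MA probe set of highest mean signal (for Sorbs2, MB), had a median log2 change of 2.35 in shRNA cells and 3.47 in vector cells, against medians over all tested MA probe sets of -0.0030 and 0.0085. On MA, 11 of 11 tested probe sets were called higher in DM in shRNA cells and 11 of 11 in vector cells, where 16.3% and 23.9% of all tested probe sets were. For 9 of 9 leading MA probe sets the DM and GM groups did not overlap, in shRNA cells and in vector cells, as was so in that direction for 25.1% and 25.9% of all tested MA probe sets. On MB, 1 of 4 was called higher in shRNA cells and 1 of 4 in vector cells, where 2.27% and 4.21% of all tested probe sets were. The other 3 Sorbs2 probe sets changed by 0.96, 0.80 and -0.42 in shRNA cells and by 0.33, -0.51 and 0.93 in vector cells. The median over the 4 was 0.88 in shRNA cells and 0.63 in vector cells. Of the MA probe sets, those of Actn2, Myoz2 and Myot reached 30 only in DM arrays, so the filter itself favoured a difference there and the count supports nothing for them. C2C12 cultures in DM hold cells at different stages, and fewer differentiated cells cannot be told apart from less RNA per cell in these values. The 3′/5′ log2 signal ratio, a sign of RNA quality, also moved with medium in vector cells. On MA it was -0.058 to 0.016 in DM shRNA and -0.084 to 0.030 in DM vector, against 0.010 to 0.039 in GM shRNA and 0.034 to 0.108 in GM vector. The vector groups did not overlap, while the shRNA groups did. Its part in the results was not tested.

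Both muscle actin crosslinkers were lower with the shRNA in DM. Actn2, the alpha-actinin of heart and of all skeletal fibre types, had signals of 536, 487 and 576 in DM shRNA, against 1888, 1876 and 2267 in DM vector. In GM it had 4.09, 3.57 and 5.10 with the shRNA, against 3.24, 4.43 and 8.19 with vector. All DM arrays lay far above all GM arrays, and within DM every shRNA array lay below every vector array. The log2 rise in DM was 4.83 ± 0.14 in shRNA cells (limma adjusted p = 2.6e-12) and 6.64 ± 0.14 in vector cells (adjusted p = 7.89e-14). In DM the mean was 533 ± 44.5 with the shRNA, against 2010 ± 222 with vector (SD, n = 3 each). This was a change of -1.88 ± 0.14 on the log2 scale (limma adjusted p = 8.19e-07, exact permutation p = 0.1). In GM the change was -0.069, with a 95% interval from -0.36 to 0.22.

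Actn3, the alpha-actinin of fast glycolytic fibres, had signals of 951, 1147 and 1078 in DM shRNA, against 1989, 2174 and 2330 in DM vector. In GM it had 216, 184 and 155 with the shRNA, against 213, 179 and 243 with vector. All GM arrays lay above 30 and the GM groups overlapped, while all DM arrays lay above all GM arrays. The log2 rise in DM was 2.43 ± 0.14 in shRNA cells (adjusted p = 5.81e-09) and 3.27 ± 0.14 in vector cells (adjusted p = 1.07e-10). Its DM signal with the shRNA was 48.9% of the vector mean (1059 ± 99.9 and 2164 ± 171, SD, n = 3 each), a log2 change of -1.02 ± 0.14 (limma adjusted p = 0.000142), and no DM shRNA array reached a DM vector array. The nonmuscle alpha-actinins went the other way with medium in vector cells. Actn1, which links actin at focal adhesions and stress fibres, fell with DM by 1.24 in vector cells (adjusted p = 2.03e-07), and Actn4 fell by 0.52 (adjusted p = 0.00406). Of all tested MA probe sets, 25.4% were called lower there. The other Actn1 probe sets changed by -0.19 (adjusted p = 0.616) and -0.99 (adjusted p = 0.000279). In DM, Actn1 was higher with the shRNA (log2 change 0.70 ± 0.11, adjusted p = 0.000387), while the changes of its other probe sets, 0.49 (adjusted p = 0.29) and 0.49 (adjusted p = 0.073), did not pass.

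**Figure D1:**
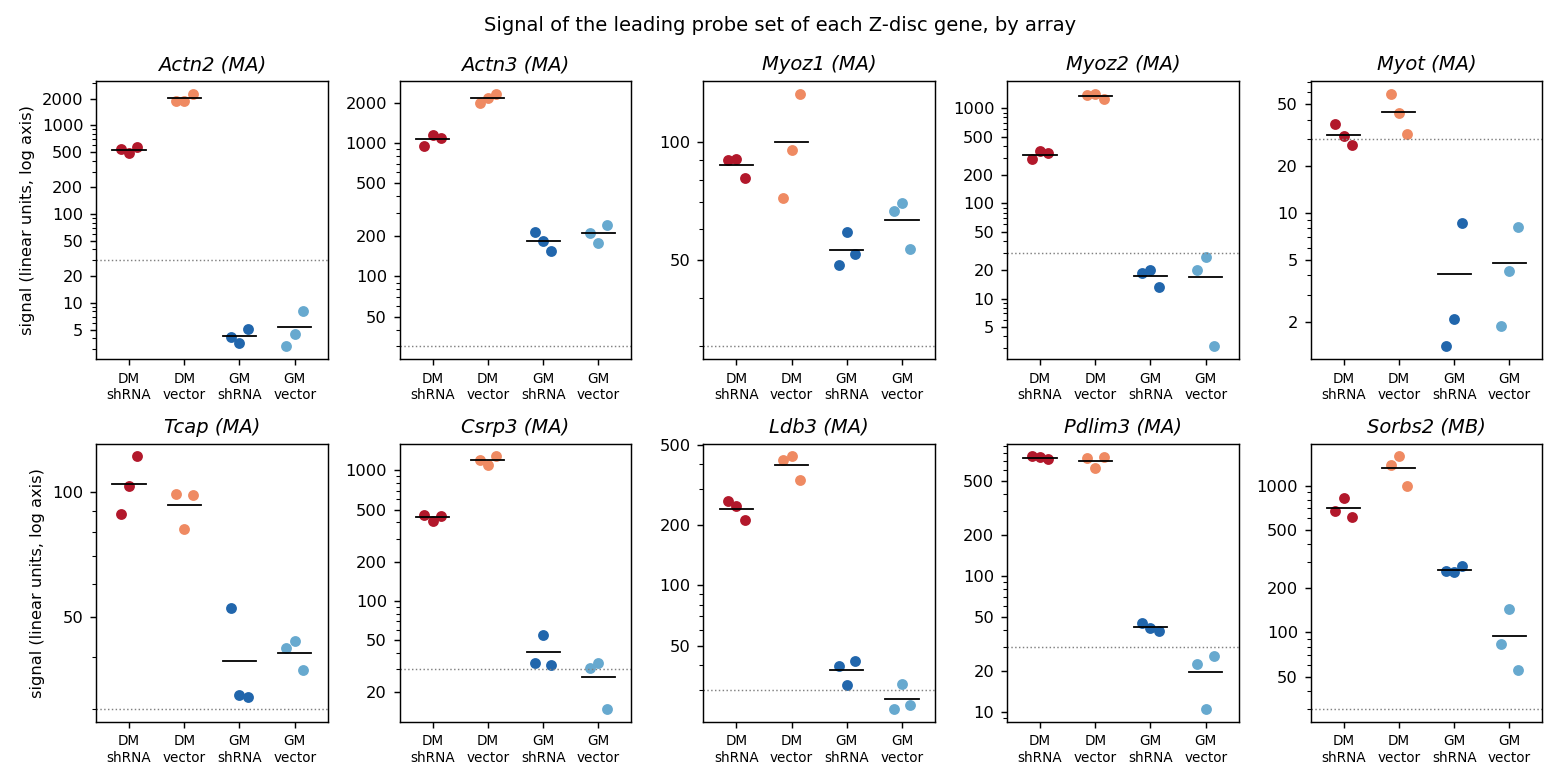
Signals (linear MAS5 intensity, log axis) of the leading probe set of each Z-disc gene on every array, in the order DM shRNA, DM vector, GM shRNA and GM vector; points are arrays, lines are group means and the dotted line is the filter of 30. DM arrays sit above GM arrays for all 10 genes, and DM shRNA arrays sit below DM vector arrays for Actn2, Actn3, Myoz2, Csrp3, Ldb3 and Sorbs2.

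Of the calsarcins and myotilin, Myoz2 was called lower with the shRNA in DM, and Myoz1 and Myot were not. Myoz2, calsarcin-1, which holds calcineurin at the Z-disc, had signals of 289, 352 and 337 in DM shRNA, against 1372, 1423 and 1249 in DM vector. Its GM signals, 18.5, 20.2 and 13.3 with the shRNA and 19.7, 27.2 and 3.14 with vector, lay below 30 throughout. The DM mean with the shRNA was 24.2% of that with vector (326 ± 32.6 and 1348 ± 89.4, SD, n = 3 each). The log2 rise in DM was 3.40 ± 0.23 in shRNA cells (adjusted p = 4.81e-08) and 5.51 ± 0.23 in vector cells (adjusted p = 1.14e-10). The shRNA change in DM of -2.001 ± 0.23 (limma adjusted p = 4.19e-05) was the largest of the Z-disc genes in DM. In GM the change was 0.11 with a 95% interval from -0.39 to 0.61.

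Myoz1, calsarcin-2, the fast-fibre form, had 89.7, 90.5 and 80.9 in DM shRNA, against 71.9, 95.02 and 133 in DM vector, with overlap. Its shRNA change in DM was -0.14 (95% interval -0.53 to 0.25, adjusted p = 0.674). Its change between media was among the smallest: in GM it had 48.3, 59.0 and 51.7 with the shRNA and 66.6, 69.7 and 53.2 with vector, and the log2 rise in DM was 0.59 ± 0.18 (adjusted p = 0.0211) with the shRNA and 0.53 ± 0.18 (adjusted p = 0.0255) with vector. Leaving out single arrays ended both calls, with adjusted p up to 0.072 in shRNA cells, without DM shRNA replicate 1 or 2 or GM shRNA replicate 2 or 4, and up to 0.104 in vector cells, without DM vector replicate 2 or 3 or GM vector replicate 4. A second Myoz1 probe set had signals of 1.39 to 3.05 on all arrays and was not tested. Myot, myotilin, which crosslinks and stabilises actin at the Z-disc, had 37.4, 31.3 and 27.3 in DM shRNA, against 58.6, 43.8 and 32.5 in DM vector, and 1.40, 2.11 and 8.70 in GM shRNA, against 1.88, 4.26 and 8.15 in GM vector. It reached 30 in 5 of the 12 arrays, all in DM. The log2 rise in DM was 1.31 ± 0.24 in shRNA cells (adjusted p = 0.000671) and 1.59 ± 0.24 in vector cells (adjusted p = 6.57e-05). Both calls held in every fit that tested them, but their sizes depended on the pseudocount. They were 0.60 to 2.97 in shRNA cells and 0.79 to 3.11 in vector cells for pseudocounts of 50 and 1. With only the arrays of the comparison, Myot reached 30 in too few arrays in shRNA cells and was not tested. The DM groups overlapped, and its shRNA change of -0.33 (95% interval -0.85 to 0.18, adjusted p = 0.394) did not pass.

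Csrp3, the muscle LIM protein that binds alpha-actinin and is implicated in the sensing of stretch, had 453, 413 and 450 in DM shRNA, against 1203, 1108 and 1282 in DM vector. The DM mean was 439 ± 22.3 with the shRNA and 1198 ± 87.1 with vector (SD, n = 3 each), or 36.6% of it. The log2 rise in DM was 3.06 ± 0.19 in shRNA cells (adjusted p = 1.31e-08) and 4.91 ± 0.19 in vector cells (adjusted p = 3.68e-11). The log2 change with the shRNA in DM was -1.42 ± 0.19 (limma adjusted p = 0.000118), and no DM shRNA array reached a DM vector array. In GM it had 33.6, 55.1 and 32.1 with the shRNA, against 30.5, 33.2 and 14.8 with vector; the GM change of 0.43 had a 95% interval from 0.032 to 0.83 and an adjusted p of 0.201.

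Tcap, the titin cap protein telethonin, was called between media and not between shRNA and vector. Its signals were 88.8, 103 and 122 in DM shRNA, against 99.1, 81.4 and 98.4 in DM vector, with overlap, and its change of 0.14 (95% interval -0.23 to 0.52, adjusted p = 0.642) was not called. In GM it had 52.6, 32.5 and 32.1 with the shRNA, against 42.0, 43.8 and 37.3 with vector. It was higher in DM than in GM by 1.16 ± 0.17 with the shRNA (adjusted p = 0.000131) and by 0.94 ± 0.17 with vector (adjusted p = 0.000396).

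**Figure D2:**
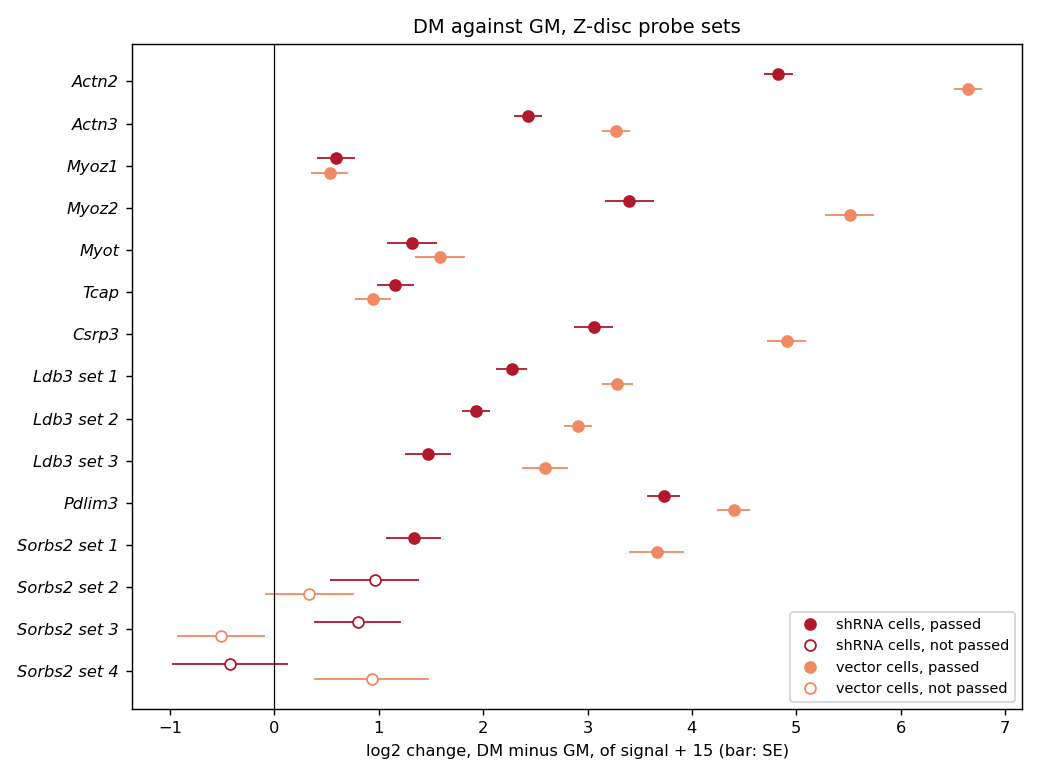
Log2 change DM minus GM, of log2(signal + 15), for all 15 tested probe sets, in p68 shRNA cells and in empty-vector cells. The 3 Ldb3 and 4 Sorbs2 probe sets are numbered from the leading one. Bars are SE from limma and filled points were called. The rise in vector cells is the larger for Actn2 (6.64 against 4.83), Myoz2 and Csrp3, and both values lie close together for Tcap and Myoz1.

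The PDZ-LIM proteins tether alpha-actinin through a PDZ domain. Ldb3, also named ZASP or Cypher, had signals of 262, 248 and 211 in DM shRNA, against 419, 438 and 336 in DM vector, by its leading probe set. The log2 change was -0.69 ± 0.15 (limma adjusted p = 0.00503), and the groups did not overlap. Its second probe set changed by -0.83 ± 0.14 (adjusted p = 0.000676) and the third by -0.64 ± 0.22 (adjusted p = 0.0611), so all 3 lay the same way and 2 of 3 were called. The third passed without DM vector replicate 3 (adjusted p = 0.0396), GM vector replicate 3 (adjusted p = 0.0193) or GM vector replicate 4 (adjusted p = 0.0306). It also passed with quantile normalization (adjusted p = 0.0336), a pseudocount of 50 (adjusted p = 0.0194) or only the arrays of the comparison (adjusted p = 0.0402). Between media the leading set rose by 2.27 ± 0.15 in shRNA cells (adjusted p = 2.81e-08) and by 3.28 ± 0.15 in vector cells (adjusted p = 2.37e-10). In GM the leading set had 39.8, 31.8 and 42.0 with the shRNA, against 24.2, 32.2 and 25.3 with vector. This change of 0.32 had a 95% interval from 0.0048 to 0.64 and was not called (limma adjusted p = 0.236). The second set changed by 0.14 (adjusted p = 0.63) and the third by 0.48 (adjusted p = 0.23) in GM.

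Pdlim3, the actinin-associated LIM protein ALP, had 755, 748 and 717 in DM shRNA, against 741, 622 and 745 in DM vector. Its DM signals overlapped and the change of 0.078 had a 95% interval from -0.26 to 0.42. It rose with DM by 3.73 ± 0.16 in shRNA cells (adjusted p = 2.66e-10) and by 4.40 ± 0.16 in vector cells (adjusted p = 2.33e-11). In GM it was higher with the shRNA. Its signals there were 44.8, 41.4 and 39.4 with the shRNA, against 22.5, 10.5 and 25.7 with vector. The groups did not overlap, and the log2 change was 0.75 ± 0.16 (limma adjusted p = 0.0119). The vector signals all lay under the filter of 30, and the change was 0.41 and 1.15 for pseudocounts of 50 and 1.

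Sorbs2, an SH3-domain adaptor that links the Z-disc to signalling proteins, was measured on MB only. Its leading probe set had 669, 821 and 612 in DM shRNA, against 1373, 1582 and 988 in DM vector. Every DM shRNA array lay below every DM vector array, yet the log2 change of -0.88 ± 0.26 had an adjusted p of 0.152 (unadjusted 0.00369, exact permutation p = 0.1). In GM it had 260, 259 and 283 with the shRNA, against 82.9, 144 and 55.7 with vector. The log2 change was 1.45 ± 0.26 (limma adjusted p = 0.0255). The groups did not overlap. It rose with DM by 1.33 ± 0.26 in shRNA cells (adjusted p = 0.00358) and by 3.66 ± 0.26 in vector cells (adjusted p = 1.18e-08). The GM call was lost without any 1 of the GM shRNA arrays or without GM vector replicate 1 or 3, with adjusted p of 0.0887 to 0.126. The median GM change over the 4 Sorbs2 probe sets was -0.22. The 3′/5′ log2 ratio on MB was -0.011 to 0.017 in GM shRNA, against 0.084 to 0.127 in GM vector, with no overlap, and was -0.031 to 0.025 in DM shRNA, against -0.044 to -0.035 in DM vector. Its part in the Sorbs2 values was not tested. Without replicate 2 of DM vector, the MB array with the lowest correlation to its group, the DM change was -0.73 (adjusted p = 0.366). The other 3 Sorbs2 probe sets were called in no comparison. One had 110, 115 and 114 in DM shRNA, against 60.5, 34.4 and 79.7 in DM vector, and another had 92.4, 21.3 and 28.6 in DM shRNA, against 98.2, 147 and 143 in DM vector. In neither did the DM groups overlap. The first had a DM change of 0.86 (adjusted p = 0.496) and the second -1.36 (adjusted p = 0.363), so the Sorbs2 probe sets differed in sign.

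**Figure D3:**
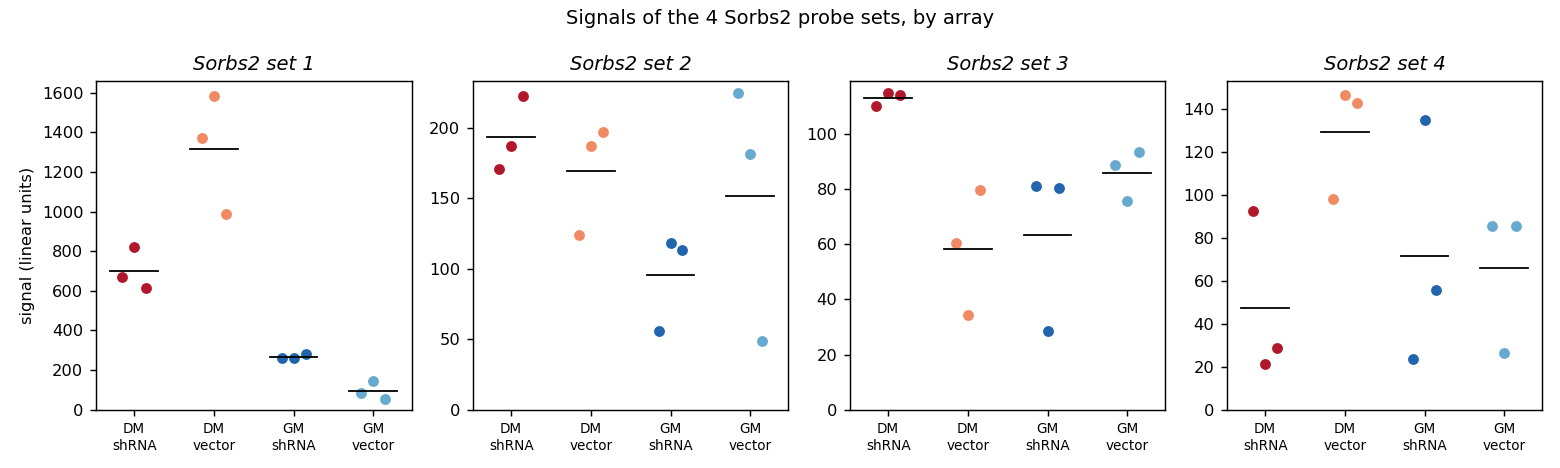
Signals (linear MAS5 intensity, linear axis) of the 4 Sorbs2 probe sets on every MB array, in the order DM shRNA, DM vector, GM shRNA and GM vector. Points are arrays and lines are group means. The leading probe set is the only one of the 4 with all DM arrays above all GM arrays both with the shRNA and with vector.

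In DM, 5 of the 10 genes were called lower with the shRNA by their leading probe sets (Actn2, Actn3, Myoz2, Csrp3 and Ldb3), none higher, and the median change was -0.78. On MA, 6 of 11 tested probe sets were called lower, where 6.24% of all tested probe sets were, and none was called higher, where 10.7% were. For 12.3% of all tested MA probe sets every DM shRNA array lay below every DM vector array, as it did for 7 of the 11 Z-disc probe sets. On MB, none of 4 was called lower, where 0.389% of all tested probe sets were, and none higher, where 0.782% were. The unadjusted limma p was 0.00369 and 0.0247 for the 2 Sorbs2 probe sets that lay lower. It was 0.0567 and 0.655 for the 2 that lay higher. In GM, 2 of the 10 were called higher, Pdlim3 on MA (1 of 11, where 3.99% of all tested probe sets were) and Sorbs2 on MB (1 of 4, where 0.207% were), and the median change was 0.025. Of the 8 skeletal markers, 2 were called lower with the shRNA in GM, Cdh15 (-0.75) and Ckm (-0.53), where 2.57% of all tested MA probe sets were, and the other 6 did not pass. Their summed signal was 3140 to 3623 in GM shRNA and 4098 to 4497 in GM vector, and its part in the GM values was not tested. Skeletal markers also moved with the comparison in DM. Of 8 skeletal markers tested, 4 were lower with the shRNA in DM and 1 was higher, with a median of -0.44. Ckm, muscle creatine kinase, changed by -0.99 ± 0.14 and Myog, myogenin, by -0.36 ± 0.17 (adjusted p = 0.17). The summed signal of these markers in MA arrays was 17035 to 19104 in DM shRNA and 21969 to 31900 in DM vector. The part of a difference in differentiated cells in the Z-disc values was not tested.

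**Figure D4:**
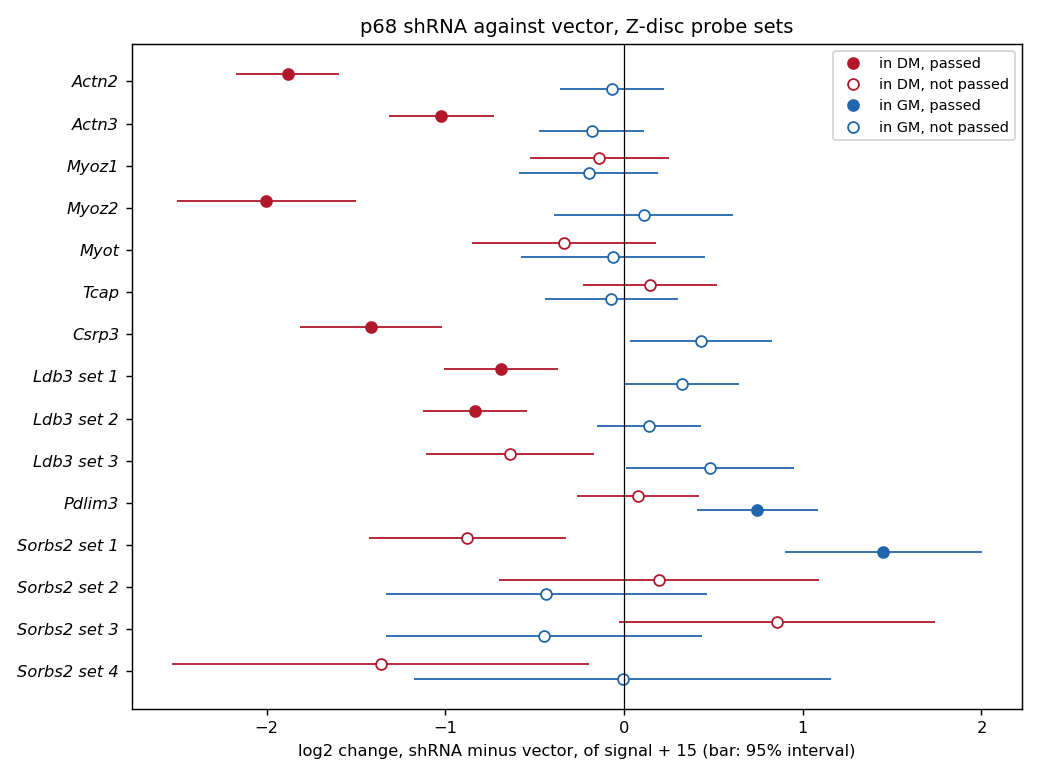
Log2 change p68 shRNA minus empty vector, of log2(signal + 15), for all 15 tested probe sets in DM and in GM. The 3 Ldb3 and 4 Sorbs2 probe sets are numbered from the leading one. Bars are 95% intervals from limma and filled points were called. Actn2, Actn3, Myoz2, Csrp3 and Ldb3 have called points below 0 in DM. Pdlim3 and the leading Sorbs2 probe set have called points above 0 in GM.

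The fall of a gene with the shRNA in DM and its change in GM share no array, but the rise with medium shares arrays with both, so the values are given side by side and not counted as separate support. The difference between the 2 DM-minus-GM changes (shRNA minus vector) was -1.81 ± 0.19 for Actn2 (limma adjusted p = 5.18e-05), -2.11 ± 0.33 for Myoz2 (adjusted p = 0.00109) and -1.85 ± 0.26 for Csrp3 (adjusted p = 0.000557). It was called lower for 6 of the 10 leading probe sets, with a median of -0.93. On MA, 7 of 11 tested probe sets were called lower, where 4.48% of all tested probe sets were. The count was 6 with no filter, with a pseudocount of 1 or with a replicate block, the third Ldb3 probe set being the one lost. For Sorbs2 the difference was -2.33 ± 0.37 (adjusted p = 0.00658), on MB, where 0.166% of tested probe sets were called lower. That call was lost without a mean-variance trend (adjusted p = 0.156). The other 3 Sorbs2 probe sets had differences of 0.63, 1.31 and -1.35, none called, and the median over the 4 was -0.36. It was also called for Actn3 (-0.84 ± 0.19, adjusted p = 0.0133) and Ldb3 (-1.01 ± 0.21, adjusted p = 0.00723). The difference was 0.22 ± 0.25 for Tcap (adjusted p = 0.66), 0.060 ± 0.26 for Myoz1 (adjusted p = 0.919) and -0.27 ± 0.34 for Myot (adjusted p = 0.689), none of them called. For Pdlim3 it was -0.67 ± 0.22 (adjusted p = 0.0765).

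Genes of the same structures were read from lists that the members do not include. Of 27 anchors, chaperones and Z-disc partners, 25 were on the arrays and 23 were tested, 19 of them on MA. In vector cells 18 were called higher in DM and 1 lower, with a median of 2.21. Of all tested probe sets, 23.9% were higher and 25.4% lower on MA, and 4.21% and 5% on MB. In shRNA cells 17 were called higher and 2 lower, with a median of 1.60. There 16.3% of all tested probe sets were higher and 17.5% lower on MA, and 2.27% and 2.57% on MB. Ankrd2, Itgb1bp2, Neb and Trim63 had the largest rises in vector cells, 6.89, 6.81, 6.69 and 5.59. Their mean GM signals were 3.24 to 26.8, all under 30, so the filter itself favoured a rise for them. Others, such as Smpx, Xirp1 and Ttn, also had mean GM signals under 30. The counts between media support nothing for any of these genes. In DM, 8 of the 23 were called lower with the shRNA and 1 higher, with a median of -0.36. Of all tested probe sets, 6.24% were lower and 10.7% higher on MA, and 0.389% and 0.782% on MB. Ankrd1, a titin-bound ankyrin repeat protein, fell by 2.57 (SE 0.12, limma adjusted p = 3.59e-08), Ankrd2 by 1.78 (adjusted p = 8.41e-05), Itgb1bp2, melusin, by 1.24 (adjusted p = 0.0028) and Trim54 by 0.88 (adjusted p = 0.00475). The 1 higher gene was Fhl1 (0.36, adjusted p = 0.0323), named after its value was seen, while its second probe set, on MB, changed by -0.37 (adjusted p = 0.767). In GM 1 of the 23, Synpo2, was called higher with the shRNA (0.79 ± 0.16, adjusted p = 0.0103). Of all tested probe sets 3.99% were called higher there on MA and 0.207% on MB, so this count lies near the MA share.

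Of 12 further palladin, calsarcin and PDZ-LIM family members, 11 were tested, 10 of them on MA. In vector cells 4 were higher and 4 lower in DM, with a median of 0.16, and in DM 3 were higher and 1 lower with the shRNA. Of all tested MA probe sets, 23.9% were higher and 25.4% lower in DM in vector cells. With the shRNA in DM, 10.7% were higher and 6.24% lower. On MB, where Mypn was read, 4.21% were higher with DM in vector cells and 0.389% lower with the shRNA in DM. Mypn, myopalladin, which binds nebulin at the Z-disc, rose with DM by 4.85 ± 0.29 and was lower with the shRNA in DM (log2 change -1.30 ± 0.29, limma adjusted p = 0.0324, MB), while its second probe set changed by -1.17 (adjusted p = 0.22). Csrp2, a LIM protein known from smooth muscle, fell with DM by 1.93 in vector cells (adjusted p = 1.41e-09) and was higher with the shRNA in DM by 0.87 ± 0.10 (adjusted p = 5.11e-05). Of 5 calcineurin genes, 4 were tested and none was called between shRNA and vector in DM. Ppp3ca, a catalytic subunit, was higher with the shRNA in GM by 0.71 ± 0.12 (adjusted p = 0.00273), where 3.99% of all tested MA probe sets were called higher. Its other MA probe sets changed by 0.69 (adjusted p = 0.154) and 0.58 (adjusted p = 0.185) and were not called.

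**Figure D5:**
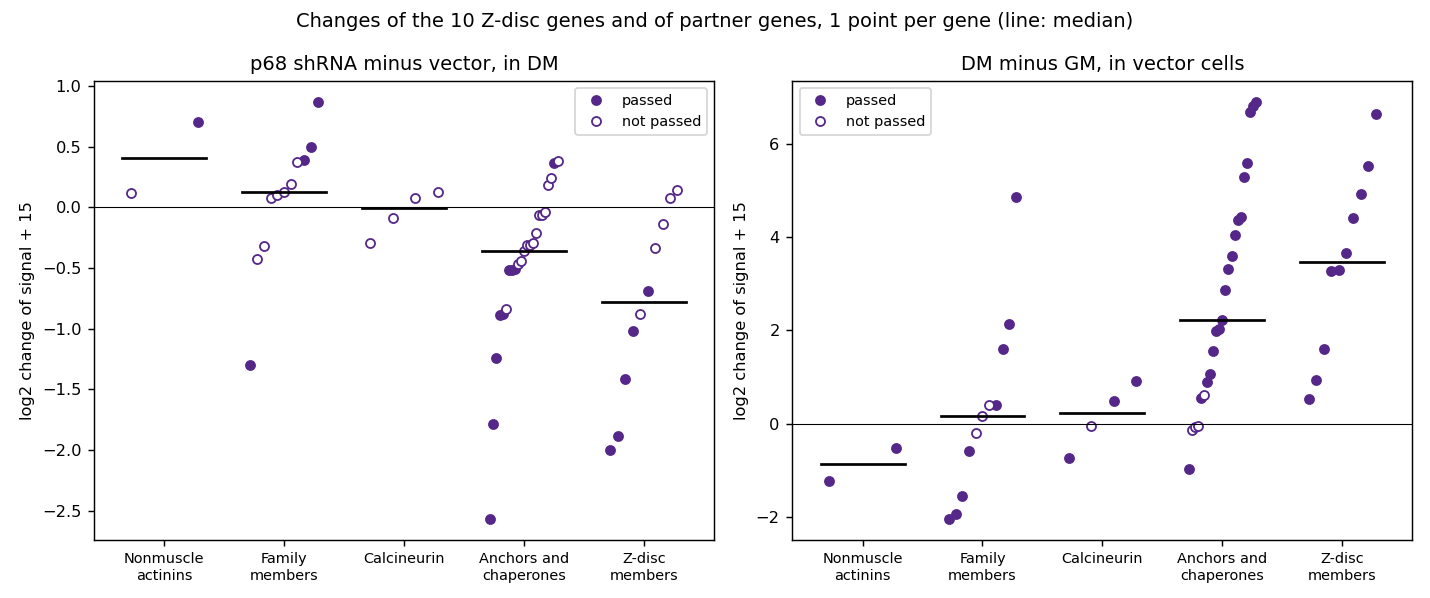
Log2 changes of the Z-disc partner lists by list, shRNA minus vector in DM on the left and DM minus GM in vector cells on the right, with a point per tested gene and a line at the list median. The anchors and chaperones have a median of -0.36 on the left and 2.21 on the right, and the further family members of 0.13 and 0.16.

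Markers of other cell types were checked on the same arrays. None of the 4 tested cardiac markers was called between shRNA and vector in DM, where 10.7% of all tested MA probe sets were called higher and 6.24% lower. Myh6 stayed at or under 13.3 and Myl7 at or under 20.0. Signals reached 43.5 for Nppa, 57.2 for Nkx2-5, 58.3 for Nppb, 64.5 for Tnni3 and 80.0 for Gata4. Between media only Tnni3 of the 4 was called, with both the shRNA and empty vector. Its log2 signal rose with DM by 1.94 ± 0.24 with empty vector and by 1.05 ± 0.24 with the shRNA. Of all tested MA probe sets, 23.9% were called higher in DM with empty vector and 16.3% with the shRNA. The summed cardiac signal was 207 to 257 in DM shRNA and 191 to 298 in DM vector. Of 5 smooth muscle markers tested, 1, Lmod1, was called between shRNA and vector in DM. It was higher with the shRNA (log2 change 1.08, limma adjusted p = 0.00698), as 10.7% of all tested MA probe sets were. The list's summed signal was 8507 to 10627 in DM shRNA and 7991 to 13167 in DM vector. Of 4 adipocyte markers, 2 were on the arrays and stayed at or under 28.9. Of 6 osteoblast or cartilage markers, 4 were on the arrays and 3 were tested, and none was called between shRNA and vector in DM.

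Likeness was measured by root mean square difference of the 3 group-mean log2 changes from GM vector, over 8630 named MA genes, against the median of the 9 Z-disc genes measured on MA. That median was 2.60 in DM shRNA, 3.28 in DM vector and -0.059 in GM shRNA. The genes closest to it were Clic3 (0.088), Slc4a3 (0.13), Pde4dip (0.15), Ptgds (0.15) and Syne1 (0.21). Closeness over 4 group means is a description of these arrays.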

How the data were processed

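Biotin-labelled total RNA of C2C12 cells was measured on 12 arrays each of the MA and MB designs. The authors deposited 1 linear intensity per probe set and array. The submitters' processing notes name MAS5, which combines matched and mismatched probes; the sources used here give no version, settings or detection calls. The arrays had already been scaled: their trimmed mean was 150.06 to 150.08 on MA and 150.03 to 150.04 on MB. No depth applies to arrays, so their number limits the precision. Groups and replicate numbers come from the titles.

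Probe sets were named through the platform annotation, and only those with 1 symbol (20380 MA and 14661 MB) could stand for a member or named gene. Non-control probe sets with no symbol or several symbols stayed in the fit, the adjustment and the shares over all tested probe sets. With limma 3.58.1 in R 4.3.3, 4 group means were fitted to log2(signal + 15) over the 12 arrays of each design, using eBayes with a trend, and p-values were adjusted by Benjamini-Hochberg at a threshold of 0.05. Only probe sets that reached 30 in at least 3 of the 12 arrays were tested. The step was tested on simulated data. The members and gene lists were chosen with earlier results of these data known. Every member probe set is reported, and each gene is led by its MA probe set of highest mean signal (MB where MA has none). From each other list at most 4 passing genes per comparison are named. They were taken from those with the largest change, but not every such gene is named, and Fhl1 was named apart from this. Promoters are RefSeq sequences of GRCm38.p6. Alternatives changed the pseudocount, the filter, the trend, quantile normalization, the arrays fitted, the probe set that stands for a gene, a replicate block and single arrays left out.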

Additional observations from a re-analysis of the deposited data

Results flagged for a closer look

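For 8 Z-disc probe sets the DM-minus-GM change differed between p68 shRNA and vector cells by limma's interaction test, and the differences are given as shRNA minus vector on the log2 scale. They were -1.81 for Actn2 (adjusted p = 5.18e-05), -0.84 for Actn3 (adjusted p = 0.0133), -2.11 for Myoz2 (adjusted p = 0.00109) and -1.85 for Csrp3 (adjusted p = 0.000557). For Ldb3 they were -1.01 (adjusted p = 0.00723), -0.98 (adjusted p = 0.0051) and -1.12 (adjusted p = 0.0344) on its 3 probe sets, and for the leading Sorbs2 probe set -2.33 (adjusted p = 0.00658). The Sorbs2 call was lost without a mean-variance trend (adjusted p = 0.156). The other 3 Sorbs2 probe sets had differences of 0.63, 1.31 and -1.35, none called, with a median over the 4 of -0.36. The Ldb3 value of -1.12 lost its call in 9 of the fits that leave out 1 array, and with no filter (adjusted p = 0.0653), a pseudocount of 1 (adjusted p = 0.0525) or a replicate block (adjusted p = 0.0558).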

How the results depend on the processing

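Of 75 values (15 tested probe sets in 5 comparisons), 66 kept their side of the threshold in every alternative fit that gave them an adjusted p, and 9 did not. Fits in which a probe set fell below the filter, and the median over probe sets, were not counted. Myot between media in shRNA cells, with only the arrays of that comparison, was such a case. Without a mean-variance trend, no MB probe set was called for the interaction or for shRNA against vector in GM: 0 against 1 in each, Sorbs2 reaching adjusted p = 0.156 and 0.321. With only the arrays of that comparison the GM count on MB was also 0. Leaving out single arrays gave 0 to 1 there and 1 to 2 on MA, the second probe set being one of Ldb3 (0.76, adjusted p = 0.0494). Taking the median over the 4 Sorbs2 probe sets turned its GM change to -0.22. The replicate numbers do not mark a shared batch in the labels. Same-numbered arrays correlated in their deviations from the group means at -0.14 to 0.29 on MA and -0.039 to 0.028 on MB over the 4 comparisons. For shRNA against vector in DM on MA, where 3 numbers are shared, the values were 0.28, -0.14 and 0.13, and 3 of 6 arrays correlated best with their own number. For DM against GM in vector cells on MA, where 2 numbers are shared, they were 0.17 and 0.29. Fitting the replicate block gave 2 MA probe sets in GM in place of 1, the second being Csrp3 (0.50, adjusted p = 0.0483), and lost Myoz1 between media in vector cells (adjusted p = 0.0568) and the third Ldb3 probe set in the interaction (adjusted p = 0.0558), so that the MA interaction count was 6 in place of 7. The MA count for shRNA against vector in DM was 7 in place of 6 with a pseudocount of 50, quantile normalization or only the arrays of the comparison, by the third Ldb3 probe set. For Pdlim3 the interaction passed without GM vector replicate 4 (-0.80, adjusted p = 0.0429). Array signals near or under 30 limit Myot and the GM values of Actn2, Myoz2, Csrp3, Ldb3, Tcap and Pdlim3.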
